A study of Mus musculus with 4 samples.

Results

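The secreted and membrane-bound proteases that remodel the matrix around fibroblasts, and their inhibitors, were followed at the level of chromatin accessibility in fibroblasts with and without HAT1. The genes were 7 matrix metalloproteinases (Mmp2, Mmp3, Mmp9, Mmp10, Mmp13, Mmp14 and Mmp19), the inhibitors Timp2 and Timp3, and the ADAMTS protease Adamts1, 10 genes in all. Each accessible site that overlapped the body of one of these genes, or lay within 30 kb of its main transcription start site in the GENCODE annotation of mm10, was taken as a member. This gave 62 of the 82325 sites measured, and no site belonged to more than 1 of the genes. Timp2 had 11 sites, Mmp2, Mmp9 and Mmp14 had 9 each, Timp3 had 8, and Mmp19 and Adamts1 had 6 each. Mmp13 had 2 sites, and Mmp3 and Mmp10 had 1 each. The median over all 21924 protein-coding genes, those without any site included, was 4. For 23 of the 62 sites the nearest protein-coding start site was that of another gene, so a site near a member is not necessarily one that acts on it.

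ATAC-Seq reads open chromatin as the places where the Tn5 transposase can insert sequencing adapters. The cells were mouse embryonic fibroblasts (MEFs) of C57bl6 background, derived from embryos and immortalized with SV40 T antigen in both genotypes, and grown in DMEM with serum and without any treatment. HAT1 WT (HAT1+/+) and HAT1 KO (HAT1-/-) lines were compared with 2 libraries per genotype, each from its own line. The labels of WT replicate 1 and KO replicate 2 share a line number whose meaning they do not give, so a common litter or dam is possible. HAT1 acetylates newly made histone H4, and the knockout was constitutive, so the lines also differ by their embryo of origin and their own course of immortalization.

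Matrix metalloproteinases are zinc endopeptidases that are made as inactive proenzymes and are opened by removal of a propeptide. The TIMP proteins bind their active sites and hold them shut, while Timp2 together with the membrane-anchored Mmp14 also brings pro-Mmp2 to the cell surface for activation. Fibroblasts make most of these enzymes during wound repair and growth, and promoters of the inducible family members carry a well-known element for the AP-1 factors (Fos and Jun).

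Hat1 itself was accessible in every library, since its promoter site had values of 390 and 384 in WT replicates 1 and 2, and of 438 and 368 in KO replicates 1 and 2. A promoter site does not test for the loss of the protein, so it checks nothing about the labels. Below, 4 values in a row are always given in that order, and they are the deposited reads per site divided by a library factor. The totals over all sites ranged from 8008069 to 8516263. The pattern of whole numbers in the low values corresponded to about 9430000 and 11400000 reads in sites in the WT libraries and about 7830000 and 5680000 in the KO libraries, so counting error was largest in KO replicate 2. All 10 fibroblast marker genes examined had a promoter site, with summed values of 3308 to 4004 across the libraries, whereas 1 of 5 blood markers, 2 of 4 neural markers, 3 of 4 endothelial markers and 4 of 5 epithelial markers had one. The defining blood gene Ptprc was without a promoter site. The replicates are separate lines, but with 2 lines per genotype a p-value measures only the spread between these samples, and the smallest 2-sided p that an exact permutation of 2 against 2 can give is 0.333.

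The promoter sequences shown here are those of the genes in which the AP-1 letters were found close to the start site. AP-1 was searched as TGANTCA, which covers both strands because its reverse complement has the same letters, and each match is in capitals. In the RefSeq promoter table (GRCm38), 7 of the 10 genes were found, and Mmp2, Mmp9 and Mmp19 were not. For each of the 7 only the entry nearest its GENCODE start was searched, whereas the share over all promoters counts every entry. At Timp2 the RefSeq start lay 329 bp from the GENCODE start, so another stretch was searched there. The motif lay within 250 bases before the start site in 3 of those 7 genes (42.9%), against 6.75% of all 32851 promoters in the table. These were Mmp3, Mmp10 and Mmp13, which lie in 1 family cluster on chromosome 9 with other Mmp genes between them. The 150 bases before each start site, all on the plus strand, read at chr9:7445672-7445821, chr9:7502192-7502341 and chr9:7272364-7272513:
Mmp3: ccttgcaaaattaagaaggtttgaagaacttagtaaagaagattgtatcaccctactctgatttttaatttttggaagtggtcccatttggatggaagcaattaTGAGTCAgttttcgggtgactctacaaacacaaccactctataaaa
Mmp10: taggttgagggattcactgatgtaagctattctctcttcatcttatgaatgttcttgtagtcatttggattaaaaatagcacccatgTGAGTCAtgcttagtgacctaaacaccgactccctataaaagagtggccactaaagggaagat
Mmp13: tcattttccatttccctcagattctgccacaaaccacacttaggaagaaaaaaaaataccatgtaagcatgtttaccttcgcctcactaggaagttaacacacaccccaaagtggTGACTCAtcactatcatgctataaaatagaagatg
The first base of the motif stood 46 bases before the RefSeq start of Mmp3, 63 bases before that of Mmp10 and 35 bases before that of Mmp13. The matched letters were TGAGTCA in Mmp3 and Mmp10, and TGACTCA in Mmp13. Only these letters were searched, and a match describes the sequence rather than a bound site.

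Among all 62 sites, 19 held the motif in their central 300 bases (30.6%, 95% Wilson interval 20.6% to 43.0%), against 37.7% of all sites. Searched over their whole length, 40.3% of member sites and 43.9% of all sites held it. More of the member sites than of all sites lay within 1 kb of a protein-coding start site (37.1% against 21.9%), where the motif is rarer. Over the 39 sites farther away the share was 38.5%, beside 44.8% of all such sites, and over the whole length of those sites it was 51.3% beside 50.4%. The members were thus below all sites in the central bases and close to them over whole sites, with no test of these differences. Mmp2 held 5 of the 19, Timp2 held 3, Mmp9, Mmp19 and Timp3 held 2 each, and the other 5 genes 1 each.

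The comparison of the genotypes asked whether loss of HAT1 changed accessibility at these genes. No member site passed the threshold (limma, at least a log2 difference of 1 in either direction with an unadjusted p under 0.01), where 0.373% of all 82325 sites did. At an unadjusted p under 0.05 the count was also 0 of 62, against 3.13% of all sites, and every one of the 62 had an adjusted p of 1. An adjusted p under 0.05 was reached by 0 of all 82325 sites, so the adjusted values do not set the member sites apart. The median log2 fold change of KO over WT was 0.02 over the member sites, beside 0.006 over all sites. Of the member sites, 45.2% were below 0, beside 49.3% of all sites. Fold changes ran from -1.53 to 0.68, and 2 sites (3.23%, beside 6.41% of all sites) reached an absolute log2 fold change of 1, both of them at Mmp2.

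Both KO values were below both WT values at 8 member sites (12.9%, background 14.3%) and above both at 7 (11.3%, background 14.6%). These shares are near or under the background, and they are no result about these genes. Of the 8, 3 were at Mmp2, 2 at Mmp9, 2 at Timp2 and 1 at Timp3. Of the 7, 2 were at Mmp9 and 2 at Timp2, and Mmp13, Mmp14 and Mmp19 had 1 each. Mmp9 and Timp2 thus had sites of both kinds.

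Values were also summed over the sites of each gene, and the sums of 18244 protein-coding genes were fitted together. None of the 10 sums passed the same threshold, against 0.258% of genes, all of which were lower in KO. An adjusted p under 0.05 was reached by 0 of the 18244 sums. At every one of the 10 genes the WT and KO sums overlapped. Over all genes, both KO sums were below both WT sums for 11.2% and above both for 23.9%. The median log2 fold change of the 10 sums was 0.07, beside 0.05 over all genes. Single lines of 1 genotype differed by a median absolute log2 value of 0.31 (WT) and 0.34 (KO) at member sites, beside 0.20 between the genotype means, each of which averages 2 lines.

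**Figure D1:**
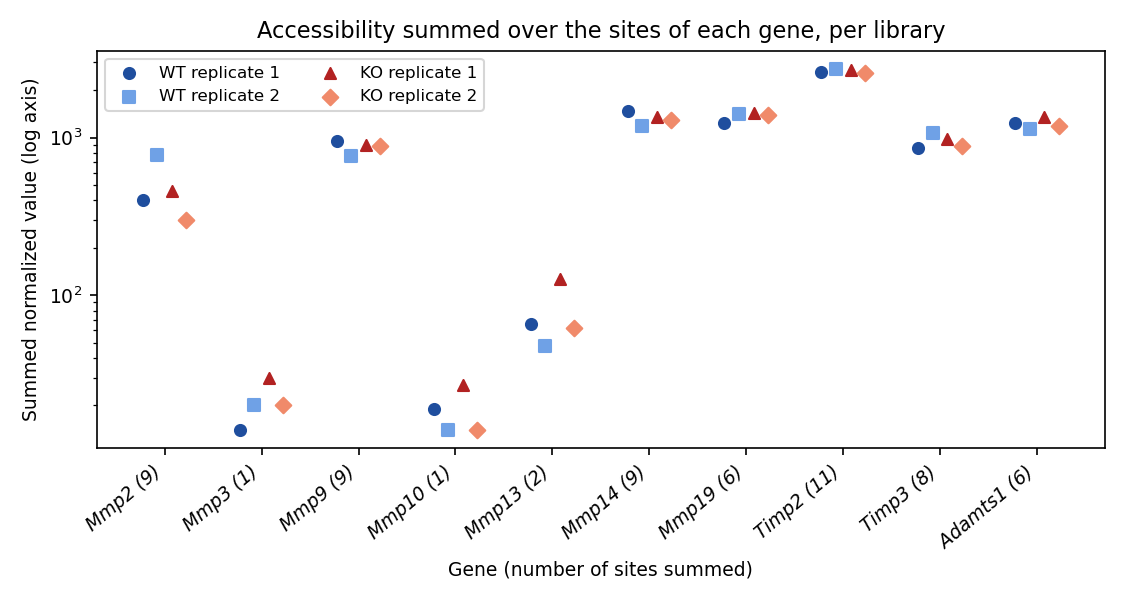
Normalized values summed over the sites of each gene (log axis), 1 point per library, with the number of sites in brackets. WT and KO points overlap at all 10 genes, and the gap between the WT libraries is widest at Mmp2 (404 and 779).

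**Figure D2:**
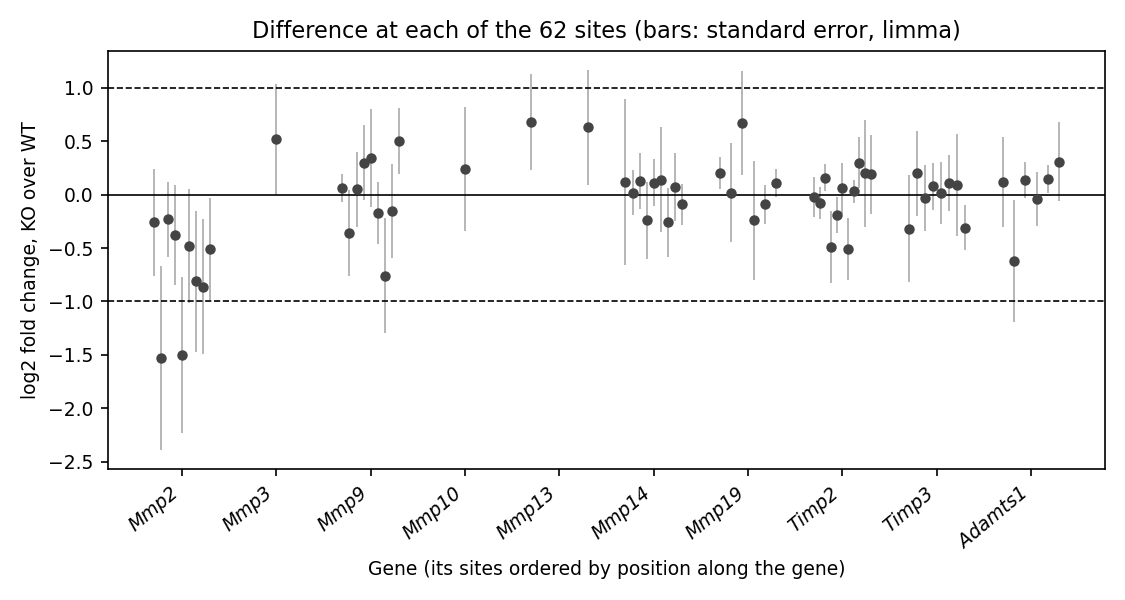
The log2 fold change of KO over WT at each of the 62 sites, grouped by gene and ordered by position, with the standard error from limma as bars and dashed lines at an absolute log2 fold change of 1. All 9 Mmp2 sites lie below 0, and the sites of the other genes scatter around it.

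Among the gelatinases, which digest denatured collagen and basement membrane collagen, Mmp2 showed the most uneven signal. Mmp2 lies on chromosome 8 (92827291 to 92853420, plus strand, mm10). Its 9 sites summed to 404, 779, 462 and 299. WT replicate 2 was high, KO replicate 2 was low, and KO replicate 1 lay between the WT lines. The log2 fold change of the sum was -0.59 ± 0.34 (SE, n = 2 per genotype, limma adjusted p = 0.906). The WT lines differed from each other by 0.95 and the KO lines by 0.63 on the same scale. Leaving out WT replicate 2 brought the fold change to -0.12, and leaving out WT replicate 1 brought it to -1.07, which did not pass the threshold either.

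All 9 sites had a fold change below 0, from -0.23 to -1.53, with a median of -0.51. They share libraries and lie close together, so they are not 9 separate observations of the genotype. KO replicate 2 was below both WT lines at 8 of them and KO replicate 1 at 3, while WT replicate 2 exceeded WT replicate 1 at 7. The promoter site, which spans the start site, had values of 43, 36, 43 and 21. KO replicate 1 equalled the higher WT line there, and the fold change was -0.38 ± 0.47 (SE). The densest site per kb, in an intron 20.26 kb into the gene, gave 102, 173, 158 and 57. Here too KO replicate 1 lay between the WT lines, and only KO replicate 2 was below them.

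The sites with the largest differences were 15.87 kb before the start of Mmp2 and 7.89 kb after it, in an intron. Their central 300 bases, at chr8:92811269-92811568 and chr8:92835029-92835328 (GRCm38, plus strand), each held 1 AP-1 match, in capitals:
Mmp2 upstream site: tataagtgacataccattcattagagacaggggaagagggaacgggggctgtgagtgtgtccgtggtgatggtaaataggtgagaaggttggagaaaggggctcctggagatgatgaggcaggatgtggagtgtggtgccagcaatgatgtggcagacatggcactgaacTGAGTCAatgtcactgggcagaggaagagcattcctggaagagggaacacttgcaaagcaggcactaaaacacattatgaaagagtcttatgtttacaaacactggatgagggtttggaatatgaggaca
Mmp2 intronic site: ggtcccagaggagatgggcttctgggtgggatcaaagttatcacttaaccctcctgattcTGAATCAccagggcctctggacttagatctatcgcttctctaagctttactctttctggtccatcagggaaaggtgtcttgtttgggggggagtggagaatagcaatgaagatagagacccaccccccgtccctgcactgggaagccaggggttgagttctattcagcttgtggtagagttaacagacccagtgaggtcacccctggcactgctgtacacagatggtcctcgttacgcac
The upstream site read 51, 51, 6 and 45. The WT lines were equal, KO replicate 2 was slightly below them, and KO replicate 1 was almost closed. Its fold change was -1.53 ± 0.86 (SE). Without KO replicate 2 it was -2.89 and passed the threshold, as 0.743% of all sites did in that fit, and without KO replicate 1 it was -0.18. The intronic site read 19, 83, 13 and 14, so that WT replicate 2 stood alone and WT replicate 1 was close to the KO lines. Its fold change was -1.50 ± 0.73 (SE), and -0.46 without WT replicate 2. It is a weak site, at 49.7 per kb and the 3.41 percentile of all sites. Another site with groups that did not overlap, 28.25 kb after the start and named after its values were seen, read 26, 29, 24 and 15, but it lies at the start of the neighbouring gene Lpcat2.

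**Figure D3:**
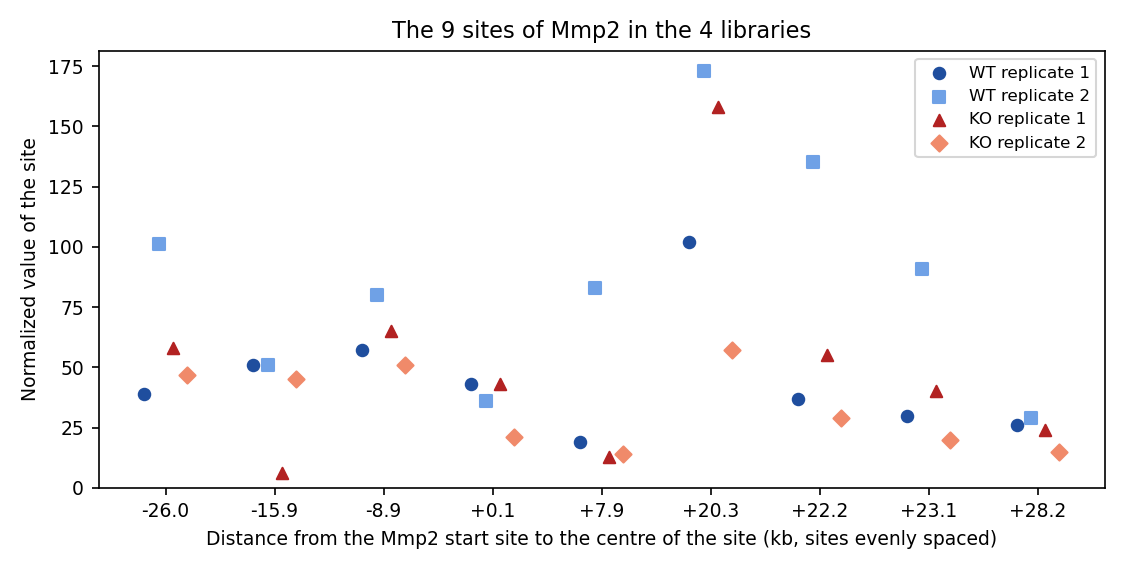
Normalized values (vertical axis) of the 9 Mmp2 sites in each library, placed by distance from the start site. WT replicate 2 is the highest point at 7 sites, and KO replicate 1 falls to 6 at the site 15.87 kb upstream.

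The other gelatinase, Mmp9, lies on chromosome 2 (164940780 to 164955850, plus strand) and had no site within 1 kb of its main start site. Its 9 sites summed to 956, 768, 895 and 883. Both KO lines lay between the WT lines, and the fold change was 0.05 ± 0.14 (SE, limma adjusted p = 0.968). The only site inside the gene, near the start of a shorter annotated transcript 12.62 kb in, read 93, 80, 73 and 80. KO replicate 2 equalled the lower WT line. For 7 of the 9 sites the nearest start was that of Zfp335 or Slc12a5. The strongest, 29.26 kb upstream with 523, 437, 483 and 516, lies at the start of Zfp335.

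The stromelysins Mmp3 and Mmp10, which cleave proteoglycans and activate other proenzymes, and the collagenase Mmp13 lie in a family cluster on chromosome 9. Over 298 kb, from 30 kb before the start of Mmp13 to 30 kb past the end of Mmp10, 6 Mmp genes are annotated and 5 sites were measured. That is 1.68 sites per 100 kb, beside 3.74 over chromosome 9. The 5 sites together gave 116, 96, 200 and 134, so both KO lines were above both WT lines, as 14.6% of single sites and 23.9% of gene sums are. This sum covers only the 298 kb region, leaves out family genes outside it and was not tested. Of those outside, Mmp7 (37, 71, 32 and 30) and Mmp8 (20, 24, 11 and 15) went the other way, with both KO sums below both WT sums. So did Mmp15 and Mmp27, whereas both KO sums were above both WT sums at Mmp16, Mmp23, Mmp25 and Mmp28.

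Mmp3 (7445822 to 7455975, plus strand) had a single site over its start, which holds the AP-1 match printed above. It read 14, 20, 30 and 20. KO replicate 1 was highest and KO replicate 2 equalled WT replicate 2, and the fold change was 0.52 ± 0.52 (SE). Mmp10 (7502352 to 7510240, plus strand) also had a single site at its start, with 19, 14, 27 and 14. KO replicate 1 was again highest, KO replicate 2 equalled the lower WT line, and the fold change was 0.24 ± 0.58 (SE). Both sites were weak, at 61.0 and 88.1 per kb or the 8.87 and 30.7 percentiles of all sites.

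Mmp13 (7272514 to 7283331, plus strand) had no site at its start or in its body, and its promoter carries the AP-1 letters shown above. Its 2 sites lay 13.84 and 9.06 kb upstream. The farther one, at chr9:7258530-7258829 (GRCm38, plus strand), is 300 bases long and is shown because it has the highest fold change of the 62 sites, so it was named after its values were seen. It holds 2 AP-1 matches:
Mmp13 upstream site: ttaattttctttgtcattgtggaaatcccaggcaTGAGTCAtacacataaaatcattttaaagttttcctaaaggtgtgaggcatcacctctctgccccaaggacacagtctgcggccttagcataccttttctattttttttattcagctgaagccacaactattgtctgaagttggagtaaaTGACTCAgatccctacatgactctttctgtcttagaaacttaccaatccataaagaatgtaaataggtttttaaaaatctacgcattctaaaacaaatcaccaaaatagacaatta
It read 18, 21, 39 and 26, both KO lines being above both WT lines, with a fold change of 0.68 ± 0.45 (SE). The nearer one read 48, 27, 88 and 36 and held no match in its central 300 bases. KO replicate 1 was high and KO replicate 2 lay between the WT lines, and the fold change was 0.63 ± 0.54 (SE). Summed, they gave 66, 48, 127 and 62 and a fold change of 0.65 ± 0.44 (SE, limma adjusted p = 0.906). Leaving out KO replicate 1 reduced that of the sum to 0.14, and leaving out KO replicate 2 raised it to 1.16, which did not pass the threshold either.

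**Figure D4:**
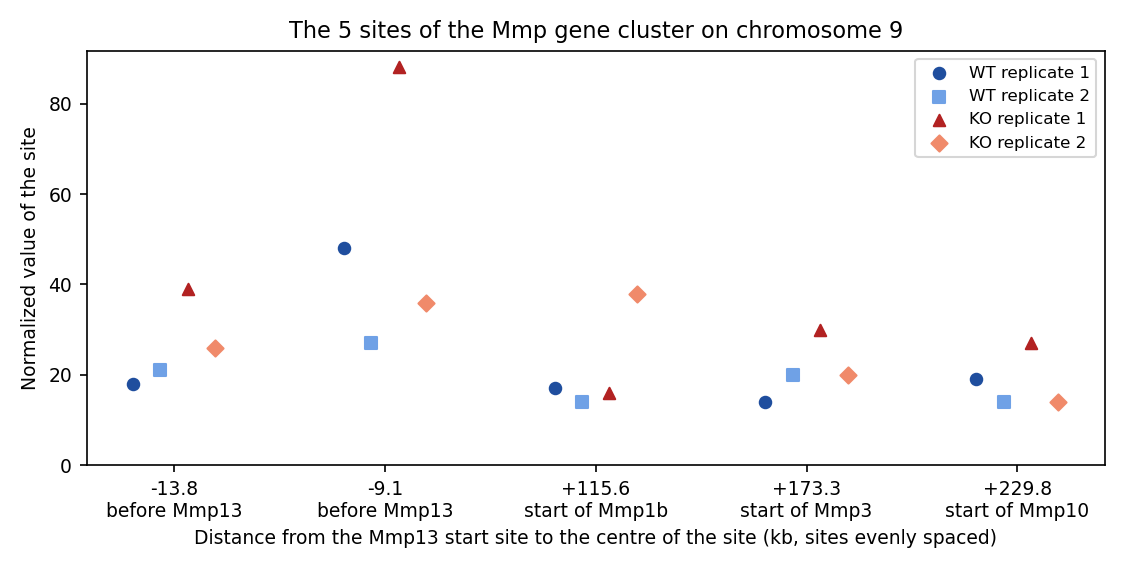
Normalized values (vertical axis) of the 5 sites in the 298 kb region of the Mmp gene cluster of chromosome 9 in each library, in order of distance from the Mmp13 start site. KO replicate 1 is the highest point at every site but the one at Mmp1b, where KO replicate 2 is highest.

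Mmp14, the membrane-anchored collagenase, was among the steadier genes. It lies on chromosome 14 (54431612 to 54445364, plus strand), and its 9 sites summed to 1479, 1183, 1348 and 1297. Both KO lines lay between the WT lines, and the fold change was -0.00 ± 0.13 (SE, limma adjusted p = 0.999). The site over its start read 207, 143, 173 and 206, and it was its densest site at 333 per kb, the 90.7 percentile of all sites. Sites 0.79 and 1.82 kb into the gene, near starts of annotated transcripts, read 134, 84, 74 and 108, and 171, 152, 166 and 183. At the first of these KO replicate 1 was lowest, and at the second KO replicate 2 was highest. The absolute fold changes of the 3 were at most 0.24, within their standard errors.

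Mmp19, which cleaves components of basement membranes, lies on chromosome 10 (128790910 to 128800824, plus strand). Its 6 sites summed to 1244, 1405, 1427 and 1383. WT replicate 1 was lowest and the other 3 libraries were close, and the fold change was 0.09 ± 0.11 (SE, limma adjusted p = 0.931). The site at its start was weak and variable, with 23, 49, 40 and 20 and a fold change of -0.24 ± 0.56 (SE). The densest of its sites, with 545, 462, 506 and 583, lies 14.38 kb away in Dnajc14. Of the 6 sites, 1 overlaps the body of Mmp19.

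Of the inhibitors, Timp2, which blocks Mmp2 and takes part in its activation, lies on chromosome 11 (118301069 to 118355740, minus strand). Its 11 sites summed to 2594, 2735, 2697 and 2582. KO replicate 1 lay between the WT lines, KO replicate 2 was just under both, and the fold change was -0.01 ± 0.10 (SE, limma adjusted p = 0.992). The promoter site read 318, 318, 249 and 313. Both KO lines were below the equal WT lines, by little in KO replicate 2, and the fold change was -0.19 ± 0.17 (SE). The densest site of all 62 lay 9.59 kb before its start, in no annotated protein-coding gene, with 331, 349, 301 and 344. At 656 per kb it stood at the 99.5 percentile of all sites, and its fold change was -0.08 ± 0.15 (SE).

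Timp3, the matrix-bound inhibitor that also blocks ADAMTS proteases, lies on chromosome 10 (86300372 to 86349506, plus strand) within an intron of Syn3. Its 8 sites summed to 856, 1065, 984 and 880. Both KO lines lay between the WT lines, and the fold change was -0.04 ± 0.14 (SE, limma adjusted p = 0.979). Its promoter site read 155, 149, 151 and 170, so the libraries were nearly level, and the fold change was 0.08 ± 0.22 (SE). A second site 2.54 kb in, near the start of a shorter transcript, read 90, 93, 80 and 107, with KO on both sides of WT. The densest, in an intron 10.37 kb in, read 161, 249, 220 and 212, with both KO lines between the WT lines.

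Adamts1, a secreted protease of aggrecan and versican, lies on chromosome 16 (85793827 to 85803113, minus strand). Its 6 sites summed to 1244, 1131, 1359 and 1183. KO replicate 1 was highest and KO replicate 2 lay between the WT lines, and the fold change was 0.10 ± 0.12 (SE, limma adjusted p = 0.931). The site centred on its start read 305, 309, 378 and 305. KO replicate 1 stood above the other 3 libraries, and the fold change was 0.14 ± 0.17 (SE). Downstream in the gene, the site 0.89 kb in read 173, 131, 145 and 147, and the densest, 1.90 kb in, read 613, 503, 645 and 585. KO lay between the WT lines at the first, and at the second only KO replicate 1 was above both.

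Change over a whole chromosomal neighbourhood was read as the mean log2 fold change over 25 consecutive sites, and a mean under -0.58 was the limit for a domain of lower accessibility. At 9 of the 10 genes this mean lay between -0.13 and 0.17. The windows at Mmp3, Mmp10 and Mmp13 spanned 1290 to 1310 kb and share sites, so these 9 are not separate neighbourhoods. At Mmp2 it was -0.64 over 389 kb, under the cutoff, as 3.42% of all windows of 25 sites were. The window was centred on the site nearest the start and holds all 9 Mmp2 sites, so it is not separate from their values. Both KO lines were under the WT mean there, by 0.53 and 0.75 on the log2 scale. The WT lines, however, differed by a mean of 0.94 over the same sites, and the mean was -0.17 without WT replicate 2 and -1.11 without WT replicate 1. With 51 sites it was -0.39, above the cutoff, and with 15 it was -0.78. At Adamts1 the KO lines went opposite ways, to -0.40 and 0.14.

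**Figure D5:**
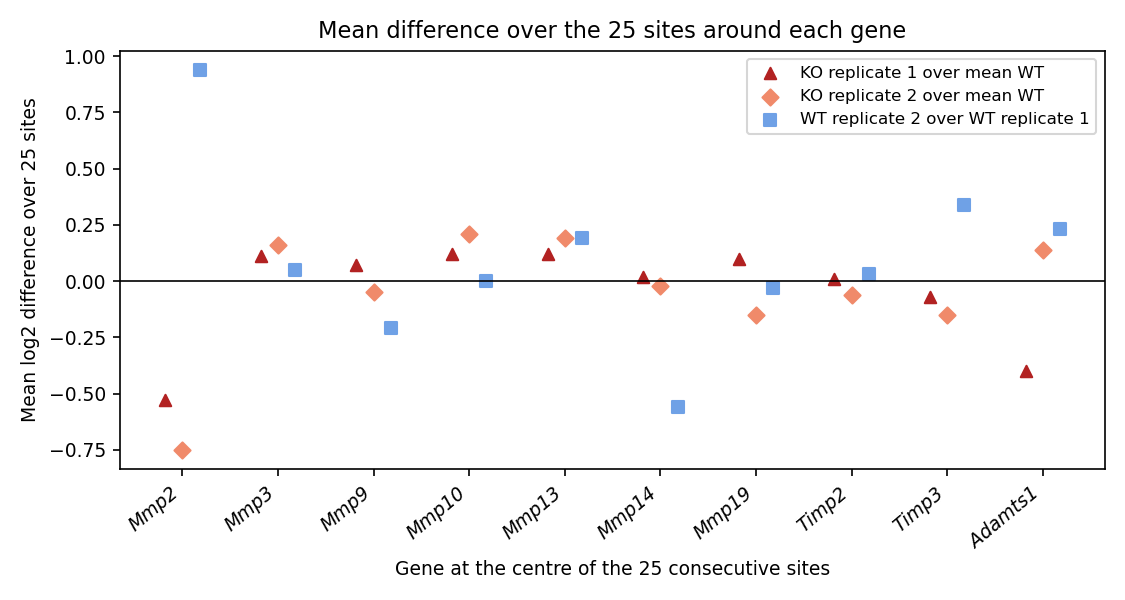
Mean log2 difference over the 25 sites around each gene, for each KO library against the WT mean and for WT replicate 2 against WT replicate 1. At Mmp2 both KO means (-0.53 and -0.75) are below 0, and the difference between the WT libraries (0.94) is larger than either.

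The other genes of the pathway were counted from lists of its known members. Of 51 sites at other matrix metalloproteinases, none passed the threshold, and neither did any of 19 at other inhibitors (Timp1, Timp4, Reck and Rarres1). The median log2 fold changes were -0.04 and -0.23, beside 0.006 over all sites. At other ADAMTS genes, 3 of 144 sites (2.08%, background 0.373%) were lower in KO and none higher, and the median over the 144 was -0.36. The first lay 1.24 kb into Adamts2, a procollagen protease, with 59, 94, 28 and 26. Both KO lines were well below both WT lines, with a fold change of -1.43 ± 0.38 (SE, limma adjusted p = 1). Adamts5, an aggrecan protease that is the chromosome neighbour of Adamts1, had such a site 2.80 kb from its start, with 235, 343, 121 and 75 and a fold change of -1.57 ± 0.32 (SE, limma adjusted p = 1). A site at the start of Adamts15, which also falls within 30 kb of Adamts8, read 82, 64, 18 and 27, with a fold change of -1.67 ± 0.39 (SE, limma adjusted p = 1). At each of the 3 the groups did not overlap, but the sites were picked by the threshold on these same values, so this adds no support.

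Among genes of the plasminogen system, whose protease plasmin activates several metalloproteinase proenzymes, 3 of 74 sites (4.05%) passed, all lower in KO and all upstream of Serpinb2, an inhibitor of plasminogen activators. The one with the highest values, 5.31 kb before its start, read 98, 100, 16 and 11, with a fold change of -2.81 ± 0.38 (SE, limma adjusted p = 1). The others were weaker in signal, at 30, 31, 4 and 2 and at 40, 36, 5 and 3, with fold changes of -3.02 and -2.99. Serpinb2 was the only gene of the pathway lists whose sum passed, at 214, 214, 38 and 22. Both KO lines were far below both WT lines, and the fold change was -2.84 ± 0.36 (SE, limma adjusted p = 0.627). This sum includes the 3 sites, which were picked by the threshold on these same values, so it adds no support to them. None of the 10 genes studied here showed a difference of that kind.

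Within the 10 genes, sites with the AP-1 letters had a median log2 fold change of -0.24 (19 sites) and sites without them 0.05 (43 sites). Over all sites the medians were 0.03 and -0.003. The Mmp2 sites make up 5 of those 19, and this difference was not tested. Member sites were longer than the median site (496.5 against 440 bp) and richer in G and C (53.5% against 48.1% in the median).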

How the data were processed

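ATAC-Seq was run on 2 HAT1 WT and 2 HAT1 KO lines. Per the study's methods, the mouse genome mm10, BWA 0.7.12 for paired-end alignment, MACS2 2.1.0 for peaks and DESeq2 for occupancy were used by the authors. The deposited table holds 1 score per library for each merged region, which the authors made by dividing its reads by a library factor and rounding. Read filters, duplicates and the Tn5 offset are not given in the sources used here. The table also holds fold changes and p-values of the authors' own comparison, which were not used. Genotypes came from the labels, and replicates were numbered in accession order.

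Values were tested as log2(value + 1) with limma 3.58.1 (R 4.3.3, intensity trend), all 82325 sites together and then sums over the sites of each of 18244 protein-coding genes, with Benjamini-Hochberg adjustment. This scale understates changes of low sites. Because the values are scaled and rounded, no count test was run. The fit was tested on simulated data. Genes came from GENCODE vM21, site sequences from GRCm38.p6, whose chromosome lengths hold all sites, and promoters from the RefSeq table. Named sites were, for each gene, those near a start site, the densest per kb, and any past the threshold or with groups apart and a log2 difference of at least 1. Depth was estimated from the pattern of frequent and missing whole numbers among low values, and intervals cover counting error only. The genes, lists and tests were chosen with earlier results of these data known. Alternatives were another pseudocount, scaling, signal filter, window and set of start sites, and leaving out each library.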

Additional observations from a re-analysis of the deposited data

How the results depend on the processing

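Each alternative changed 1 choice. The number of member sites past the threshold stayed at 0 with a pseudocount of 8, with only the 40 member sites at or above the median signal, with equal library totals, with quantile normalization, with sites within 10 kb (42 sites), with the start sites of any transcript (64 sites) and with an adjusted p under 0.05. The last of these limits was reached by 0 of all 82325 sites. Under the other alternatives with all libraries, 0.279% to 0.436% of all sites and 0.164% to 0.351% of all gene sums passed. With shares that low, a count of 0 among the member sites or sums is no result about these genes. Leaving out 1 library gave counts from 0 to 1, the 1 being the Mmp2 site at -15.87 kb without KO replicate 2 (-2.89, and -0.18 without KO replicate 1). In these fits of 3 libraries the lone sample is assumed to vary like the others. None of the 97 alternative values of the gene sums passed. The median log2 fold change of member sites was -0.044 with equal totals, beside -0.061 over all sites, and -0.05 with quantile normalization, beside 0.00 over all sites. It stayed within the spread between libraries elsewhere. Sites with both KO values lower numbered 3 among the 40 sites of higher signal, 10 with equal totals and 15 to 23 with 1 library left out. Sites with both KO values higher numbered 4 among the sites of higher signal, 2 with equal totals and 16 to 20 with 1 library left out. Comparing 2 libraries with 1 lets more sites separate by construction. The shares over all sites were not counted under these alternatives, so these counts are no result about the genes. The share of sites with AP-1 letters stayed within its interval, including over sites away from start sites, an alternative chosen after the data were seen.

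Differences changed sign as follows, none of them passing the threshold, and the cause was not tested. Most were near 0, but 1 library also turned the Mmp10 sum and site (both 0.24 with all libraries), the Mmp14 site at 0.79 kb and the Mmp19 site at -0.03 kb (both -0.24), the Mmp2 sites at 0.14 kb (-0.38) and 20.26 kb (-0.48) and the Mmp13 site at -9.06 kb (0.63). With equal totals the Mmp9 sum was -0.02, its site at -29.26 kb was -0.006 and the Timp3 site at 2.54 kb was -0.05. With quantile normalization the sums were -0.03 for Mmp9, -0.04 for Mmp19 and -0.02 for Adamts1, and the sites were -0.09 (Mmp9, -29.26 kb), -0.05 (Mmp19, 14.38 kb), -0.0097 (Timp3, 2.54 kb) and -0.03 (Adamts1, 1.90 kb). With sites within 10 kb the Mmp14 sum was 0.02. With 1 library left out in turn, the sums ranged from -0.10 to 0.21 for Mmp9, from -0.21 to 0.69 for Mmp10, from -0.16 to 0.16 for Mmp14, from -0.00018 to 0.18 for Mmp19, from -0.05 to 0.02 for Timp2, from -0.19 to 0.12 for Timp3 and from -0.0038 to 0.20 for Adamts1. The sites ranged from -0.88 to 0.12 (Mmp2, 0.14 kb), -1.21 to 0.25 (Mmp2, 20.26 kb), -0.07 to 0.19 (Mmp9, -29.26 kb), -0.21 to 0.69 (Mmp10, -0.04 kb), -0.0016 to 1.26 (Mmp13, -9.06 kb), -0.13 to 0.40 (Mmp14, -0.08 kb), -0.58 to 0.09 (Mmp14, 0.79 kb), -0.77 to 0.29 (Mmp19, -0.03 kb) and -0.0049 to 0.23 (Mmp19, 14.38 kb). They also ranged from -0.17 to 0.02 (Timp2, -9.59 kb), -0.0092 to 0.16 (Timp3, 0.30 kb), -0.19 to 0.22 (Timp3, 2.54 kb), -0.20 to 0.42 (Timp3, 10.37 kb), -0.24 to 0.16 (Adamts1, 0.89 kb) and -0.0094 to 0.30 (Adamts1, 0.00 kb).

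No paired analysis was possible because the labels share a line number for 1 WT and 1 KO line only (WT replicate 1 and KO replicate 2), which gives a single pair. With 2 libraries per genotype and the fewest reads in KO replicate 2, differences of the size seen between lines of 1 genotype could not be told from a genotype effect at low sites such as those of Mmp3 and Mmp10.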
